A study of Homo sapiens with 4 samples.

Results

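This account covers 10 genes of telomere upkeep in H1792 cells, described in the presence and absence of the chromatin remodeller degrader ACBI1. They are TERT, DKC1 and WRAP53 of the telomerase enzyme, the shelterin genes TERF1, TERF2, TERF2IP, POT1, ACD and TINF2, and the telomere helicase gene RTEL1. The genes were selected on results of the comparison described here, in which the transcript of TERT had stood out, and were found by their symbols among the 61228 features of the count files. All 10 had enough counts to be analysed with 19159 genes in all. Because the choice used these values, the levels and changes of the 10 genes are given as a description. How many of them passed the threshold in the fit over all genes is printed only beside the share of all genes that did, and nothing is read from it.

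H1792 is an established human lung cancer line, labelled as wild type with no gene named, and each library was made from total RNA. The control group was 2 libraries of cells kept for 96 h with DMSO, the solvent. The other group was 2 libraries of cells given ACBI1 for 96 h. The labels put its concentration at 1 mM, a unit that the counts cannot check. ACBI1 is a PROTAC, which brings the SWI/SNF ATPases SMARCA2 and SMARCA4 and the subunit PBRM1 to the VHL ubiquitin ligase for degradation. Both groups are cultures of 1 line, and nothing in the labels says whether replicates came from separate cultures, so the spread between them may be technical.

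Telomeres are the repeated DNA and bound proteins that cap chromosome ends, and they shorten as cells divide unless new repeats are added. Telomerase adds them: TERT is the reverse transcriptase, TERC is the RNA it copies, DKC1 (dyskerin) binds and stabilises TERC together with the H/ACA proteins NOP10, NHP2 and GAR1, and WRAP53 (TCAB1) brings the enzyme to Cajal bodies. Shelterin is the protein complex that coats the repeats, hides the ends from DNA repair and controls access of telomerase. Most adult somatic cells transcribe little TERT while the partner genes are widely transcribed, and most cancers regain TERT transcription.

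TERT lies on the minus strand of chromosome 5 at chr5:1253147-1295069 (hg38, GENCODE 29). Its promoter is shown because the level of TERT is what set these genes apart. Below are the 250 bases before its RefSeq start, chr5:1295069-1295318 of GRCh38.p14, minus strand, in lower case, with the E-box CACGTG and the GC-box letters CCGCCC in capitals.
TERT: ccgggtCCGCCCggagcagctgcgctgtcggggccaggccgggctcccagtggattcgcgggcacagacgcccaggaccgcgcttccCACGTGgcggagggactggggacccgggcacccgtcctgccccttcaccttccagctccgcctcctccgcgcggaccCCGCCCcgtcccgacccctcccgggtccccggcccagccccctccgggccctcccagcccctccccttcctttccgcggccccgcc

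An E-box, the core letters bound by MYC with MAX, by the MXD proteins with MAX and by USF proteins, stood once in this window, 163 to 158 bases before the start. CACGTG reads the same on both strands, and 6.49% of 27305 promoter windows of the same length held it. The GC box, bound by SP1 and related factors, was searched as GGGCGG and, for the other strand, CCGCCC, with overlapping matches counted. It occurred 2 times before TERT, and 24.4% of windows held 2 or more. A longer form of the ETS family site, searched as CCGGAA and TTCCGG, had no match in this window, and 14.8% of windows had one. The shorter core of these sites, GGAA or TTCC, was not searched, and TTCC does occur in the sequence above. G and C made up 78.8% of the bases, above 95.5% of all windows. Of the 10 genes, 8 were matched in the RefSeq promoter table: TERT, DKC1, WRAP53, TERF2IP, POT1, ACD, TINF2 and RTEL1. TERT was the 1 of the 8 with an E-box in its window, 6 held a GC box, and 2 (TERF2IP and POT1) held CCGGAA or TTCCGG. A match is a description of letters and not evidence of binding.

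The libraries were deep and of like size. Gene counts totalled 64281850 to 86010100 per library, spread over 26491 to 27778 genes with any count. Taken over genes (not independent of each other), log2 CPM (counts per 1000000 counts, after TMM scaling of library sizes) correlated with a Pearson's r of 0.983 for the DMSO pair, 0.986 for the ACBI1 pair and 0.928 to 0.948 across groups. The transcripts of the degraded proteins do not check a degrader that acts on protein: the log2 changes were 0.70 for SMARCA4 (edgeR adjusted p = 0.0583), -0.40 for SMARCA2 (adjusted p = 0.163) and 0.10 for PBRM1 (adjusted p = 0.734), and none was called, which here means an adjusted p under 0.05 over all tested genes. SMARCA4 was called higher in 7 of 8 other fits on all 4 libraries. Of 10 markers of lung epithelium and adenocarcinoma, NKX2-1 had 0 counts in each library and CDH1 was at 0.222 CPM or less, while the keratin gene KRT7 reached 680 CPM with DMSO. The 10 summed to 985 and 1045 CPM with DMSO and to 325 and 206 CPM with ACBI1, nearly all of it from the keratin genes KRT7, KRT8 and KRT18, while EPCAM, at 5.38 and 2.78 CPM with DMSO and 15.6 and 4.84 CPM with ACBI1, overlapped between groups. The 5 mesenchymal markers summed to 4020 and 4605 CPM with DMSO and to 3045 and 3114 CPM with ACBI1; most of this was VIM (log2 change 0.02, adjusted p = 0.950), and COL1A2, a collagen gene, fell by 4.82 on the log2 scale (adjusted p = 0.00731). The 5 white blood cell markers summed to at most 0.778 CPM in any library, with CD3E and MS4A1 at 0. The 3 endothelial markers summed to 12.6 and 48.5 CPM with DMSO, nearly all of it PECAM1, and to 0.0112 and 0.0458 CPM with ACBI1. The part of these marker shifts in the results on telomere genes was not tested.

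TERT transcripts were scarce with DMSO and, per kilobase of exon, about as abundant as those of the shelterin gene POT1 with ACBI1. DMSO replicates 1 and 2 held 182 and 91 TERT counts, or 2.24 and 1.26 CPM. ACBI1 replicates 1 and 2 held 2287 and 1862 counts, or 25.5 and 28.4 CPM. Both ACBI1 libraries were far above both DMSO libraries, and the closest pair across groups still differed 11.4-fold. Within a group the libraries differed by a ratio of 1.77 (DMSO replicate 1 over 2) and 0.90 (ACBI1 replicate 1 over 2). In the fit over all genes TERT had a log2 change of 3.94 (SE 0.33), a 15.4-fold difference, and 34 of the 19159 tested genes had a larger one. From the summed counts alone, 273 with DMSO against 4149 with ACBI1, the ratio was 15.0 with an exact 95% interval of 13.29 to 17.05 that covers counting error only. No exon of another gene overlaps those of TERT in GENCODE 29, so overlap with a neighbour does not enter its count. In bulk RNA, more cells with TERT transcripts and more transcripts per cell cannot be told apart.

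**Figure D1:**
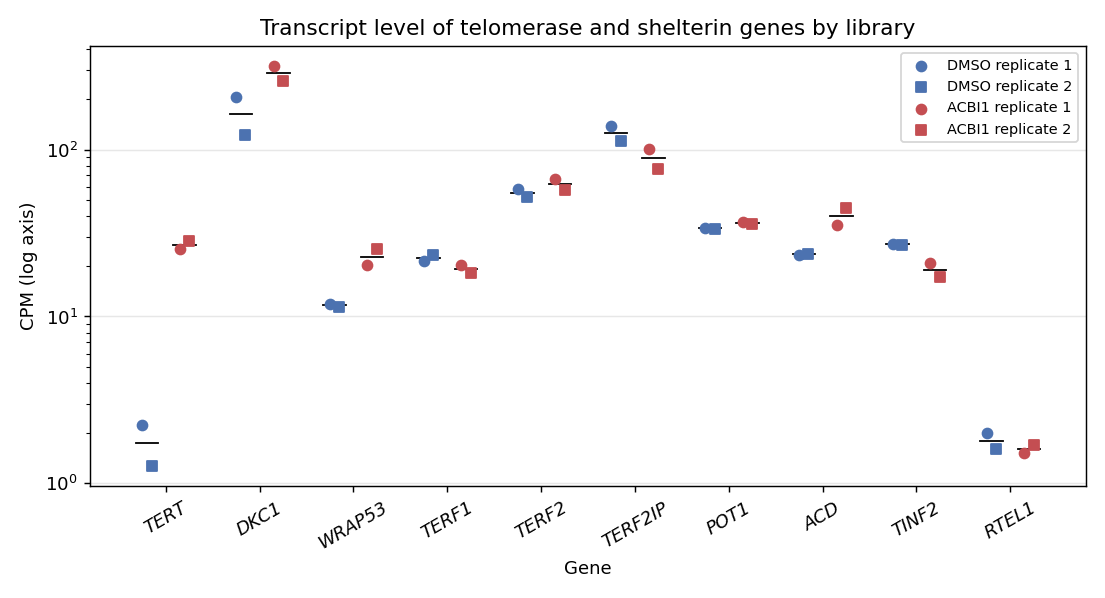
CPM of each of the 10 genes in each library, on a log axis; circles are replicate 1, squares replicate 2, blue DMSO, red ACBI1, and black bars the group means. TERT is the gene whose groups lie furthest apart, at 1.26 and 2.24 CPM against 25.5 and 28.4 CPM, while the groups of most other genes lie within a factor of about 2 (fold values 0.704 to 1.96).

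DKC1 and WRAP53, the partners of TERT in the enzyme, were higher with ACBI1 by less than 2-fold. DKC1 (chrX:154762742-154777689) stood at 206 and 123 CPM with DMSO and at 317 and 257 CPM with ACBI1. The groups did not overlap, but the DMSO libraries themselves differed by a ratio of 1.68, more than the 1.25 between the higher DMSO and the lower ACBI1 library. Its log2 change was 0.81 (SE 0.28), or 1.23 without DMSO replicate 1 and 0.48 without DMSO replicate 2. Exons of small RNA genes hosted by DKC1 cover 5.85% of its exon length on the same strand, and 2 of them, SNORA36A and SNORA56, had 0 counts in each library.

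WRAP53 (chr17:7686071-7703502) was at 11.9 and 11.4 CPM with DMSO and at 20.3 and 25.4 CPM with ACBI1. The DMSO libraries agreed closely and both ACBI1 libraries were at least 1.72 times higher, with a log2 change of 0.97 (SE 0.20). The strand setting of the counting is not stated, so reads from overlapping genes on the other strand cannot be told apart from its own.

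Of the 6 shelterin genes, the groups of 5 did not overlap, with ACBI1 above DMSO for 2 and below it for 3; of all tested genes, 63.2% had groups that did not overlap. ACD encodes TPP1, the subunit that recruits telomerase and pairs with POT1. It stood at 23.5 and 23.6 CPM with DMSO and at 35.2 and 44.9 CPM with ACBI1, a log2 change of 0.76 (SE 0.18). Both ACBI1 libraries were at least 1.49 times above DMSO, and this was the highest change among the 6. POT1, which binds the single-stranded overhang, was at 34.0 and 33.4 CPM with DMSO and at 36.8 and 35.7 CPM with ACBI1. Although these groups did not overlap, the log2 change was only 0.10 (SE 0.15).

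TINF2 encodes TIN2, the hub that joins the double-strand binding proteins to TPP1 and POT1. Its level was 27.2 and 26.9 CPM with DMSO and 20.9 and 17.2 CPM with ACBI1, so both ACBI1 libraries were lower, with a log2 change of -0.51 (SE 0.18). TERF2IP encodes RAP1, the partner of TRF2, and showed 139 and 113 CPM with DMSO against 102 and 76.8 CPM with ACBI1. The log2 change of TERF2IP was -0.50 (SE 0.21), and the gap between groups was narrow, since the higher ACBI1 library reached 0.899 of the lower DMSO library. A gene on the opposite strand covers 5.21% of the exon length of TERF2IP.

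TERF1 and TERF2 encode TRF1 and TRF2, which bind double-stranded telomere repeats; TRF1 is known for limiting elongation and TRF2 for keeping ends from being joined. TERF1, on chromosome 8, was at 21.5 and 23.4 CPM with DMSO and 20.3 and 18.2 CPM with ACBI1, a log2 change of -0.22 (SE 0.18). The 7 TERF1 pseudogenes listed in the files had at most 6 counts in a library. TERF2 had 58.4 and 52.2 CPM with DMSO and 66.9 and 57.4 CPM with ACBI1, and these groups overlapped (log2 change 0.17, SE 0.16).

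RTEL1 encodes a helicase that unwinds telomere loops during replication. It was counted at 2.002 and 1.599 CPM with DMSO and at 1.52 and 1.71 CPM with ACBI1, and the groups overlapped (log2 change -0.16, SE 0.33, or 0.02 without DMSO replicate 1 or -0.32 without DMSO replicate 2). These levels are lower limits, because 70.2% of its exon length lies in the readthrough gene RTEL1-TNFRSF6B on the same strand, where reads are ambiguous. RTEL1-TNFRSF6B had 340 counts with DMSO and 286 with ACBI1, against 278 and 248 for RTEL1 (log2 change of the readthrough gene -0.25, edgeR adjusted p = 0.656).

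**Figure D2:**
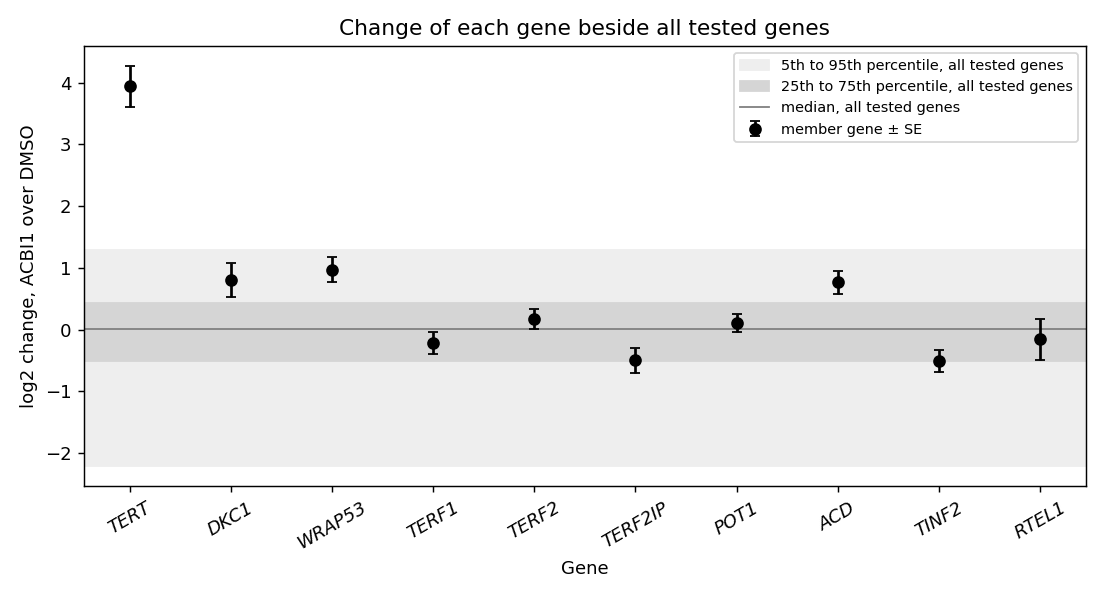
Fitted log2 change of each gene, ACBI1 over DMSO, with bars of 1 SE, beside the distribution over all 19159 tested genes (grey bands for percentiles, line for the median). TERT at 3.94 lies above the 95th percentile of 1.30; the other 9 genes, from -0.51 to 0.97, lie within the wide band.

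Set against TERT, the other 9 genes thus spanned log2 changes of -0.51 to 0.97, with a median of 0.10, and the 6 shelterin genes had a median of -0.06. The median over all tested genes was 0.01. The change of TERT exceeded that of WRAP53, its nearest partner, by 2.97 log2 units and that of DKC1 by 3.13. At an edgeR adjusted p under 0.05, over all genes, 3 of the 10 were called, TERT, WRAP53 and ACD, each of them higher. Among all tested genes 17.4% were called, 6.75% higher and 10.6% lower. Since the genes were chosen from this comparison, their count is printed beside that share and nothing is read from it. The groups did not overlap for 8 of the 10 genes (5 with ACBI1 higher, 3 with ACBI1 lower), against 31.1% of all tested genes with ACBI1 higher and 32.2% with it lower. The members called depended on the fit. With 1 library left out, ACD lost its call each time (log2 change 0.57 to 0.94) and WRAP53 lost it in some fits (0.80 to 1.13). With all 4 libraries, DKC1 was also called higher by DESeq2, a fit that called 4511 genes in all. The same held with every gene that had a count kept, where 5518 genes were called. With the replicate number as a block 7909 genes were called, with DKC1 among the higher and TERF2IP and TINF2 among the lower. The main fit called 3331 genes, and nothing is read from the added member calls.

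Per kilobase of exon, levels of different genes can be set side by side. RPKM here is CPM divided by the total exon length in GENCODE 29 in kilobases, which runs from 2712 bases for TINF2 to 8831 bases for TERF1, and it takes no account of which isoforms are used. With DMSO the order was DKC1 at 39.1 ± 14.0 RPKM (SD, n = 2), TERF2IP at 37.3 ± 5.50, TINF2 at 9.98 ± 0.0754, TERF2 at 9.84 ± 0.770, ACD at 7.31 ± 0.0248, POT1 at 5.72 ± 0.0675, TERF1 at 2.54 ± 0.149, WRAP53 at 2.29 ± 0.0590, TERT at 0.380 ± 0.149 and RTEL1 at 0.280 ± 0.0443. Neighbours in this order whose library values overlapped were DKC1 with TERF2IP, TINF2 with TERF2, and TERT with RTEL1. The place of RTEL1 is not settled, since its counts come from a part of its exons: over the 29.8% of exon length that it does not share on its strand, its level was 1.04 and 0.833 RPKM with DMSO, above both DMSO libraries of TERT (0.486 and 0.275 RPKM).

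With ACBI1 the level of TERT was 5.86 ± 0.438 RPKM (SD, n = 2), seventh in the order, and its libraries overlapped those of POT1 at 6.15 ± 0.128 RPKM. It was above WRAP53 (4.49 ± 0.704 RPKM) and TERF1 (2.18 ± 0.168 RPKM) in both ACBI1 libraries. DKC1 remained the highest at 68.3 ± 10.2 RPKM, followed by TERF2IP at 26.4 ± 5.17, ACD at 12.4 ± 2.14, TERF2 at 11.1 ± 1.20 and TINF2 at 7.03 ± 0.966 RPKM, with ACD and TERF2 overlapping. In DMSO replicates 1 and 2 there were 101 and 106 DKC1 transcripts per length for each of TERT, and in ACBI1 replicates 1 and 2 there were 13.6 and 9.91. WRAP53 exceeded TERT 4.80 and 8.17 times per length with DMSO, and was at 0.720 and 0.809 of it with ACBI1. The shelterin sum differed little, at 77.1 and 68.3 RPKM with DMSO and 69.1 and 61.3 RPKM with ACBI1, and these ranges overlapped. Within that sum, ACD made up 9.46% and 10.7% with DMSO and 15.8% and 22.7% with ACBI1, while TERF2IP made up 53.4% and 48.9% against 43.5% and 37.1%.

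**Figure D3:**
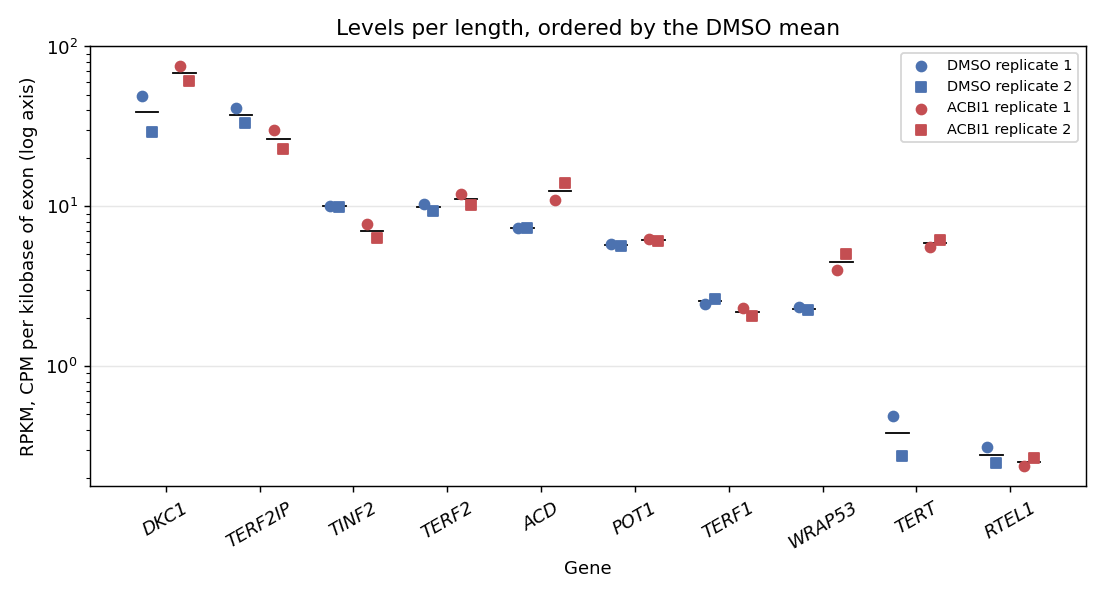
RPKM (CPM per kilobase of exon, log axis) of each gene in each library, ordered by the DMSO mean; circles are replicate 1, squares replicate 2, blue DMSO, red ACBI1, bars the means. TERT lies at the low end with DMSO (0.275 and 0.486 RPKM) and at the level of POT1 with ACBI1 (5.55 and 6.17 RPKM); the points of RTEL1 are lower limits, because 70.2% of the exon length they are divided by is shared with another gene.

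The other genes of telomerase and telomere biology were taken from lists of genes outside the 10. TERC, the RNA template, could not be compared: its counts were 0 and 5 with DMSO and 4 and 2 with ACBI1, a ratio of 1.19 with an exact 95% counting interval of 0.302 to 4.92. In GENCODE 29, 81.0% of TERC is covered by a second record on the same strand, and TERC has no poly(A) tail, while the RNA selection of these libraries is not stated. So these counts do not measure how much TERC the cells held.

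Of 21 tested genes for telomerase assembly and TERC processing (of 22 listed), 5 were called higher with ACBI1 and 1 lower, and 15 were not called. Among all tested genes 6.75% were called higher and 10.6% lower, the shares against which the counts of this and the next lists are set. The log2 change was positive for 17 of the 21, with a median of 0.41 beside 0.01 over all genes. NHP2, which with NOP10, GAR1 and DKC1 makes the H/ACA core, rose from 73.0 and 58.3 CPM to 137 and 131 CPM (log2 change 1.03, SE 0.18, edgeR adjusted p = 0.0157). NOP10 rose from 61.2 and 61.3 CPM to 94.5 and 92.4 CPM (log2 change 0.61, adjusted p = 0.0382). GAR1, named to complete the core, had a log2 change of 0.63 that was not called (adjusted p = 0.0692) but was called in 4 of 8 other fits on all 4 libraries. NAT10, an RNA acetyltransferase of the nucleolus, had a log2 change of 0.98 (adjusted p = 0.0442). The ATPase RUVBL1, needed to assemble the TERT complex, had one of 0.69 (adjusted p = 0.0393), and the HSP90 cochaperone PTGES3 one of 0.71 (adjusted p = 0.0480). SMG6, a nuclease of RNA decay that also binds telomeres, was the 1 called lower, with a log2 change of -0.63 (adjusted p = 0.0467), and was not called under upper quartile scaling (adjusted p = 0.0542), library size only (0.0687) or limma-voom (0.0522). These calls lie close to the threshold: with 1 library left out the list had 8 higher and 1 lower (without DMSO replicate 1), 1 higher (without DMSO replicate 2 or without ACBI1 replicate 2) or 0 (without ACBI1 replicate 1). Opposite-strand exons cover 27.4% of NHP2, 10.4% of RUVBL1 and 25.4% of SMG6.

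Of 30 tested genes that replicate and process chromosome ends, 10 were called higher and 0 lower, and 20 were not called. The log2 change was positive for 23 of them, with a median of 0.56. At an unadjusted p under 0.05 the numbers were 15 higher and 1 lower, and lower calls numbered 1 with DESeq2 and 0 with limma-voom. EXO1, a nuclease that trims ends, rose from 12.5 and 8.76 CPM to 33.6 and 31.6 CPM (log2 change 1.62, SE 0.23, edgeR adjusted p = 0.00917). The helicase gene BLM rose by a log2 of 1.48 (adjusted p = 0.0108), the nuclease and helicase gene DNA2 by 1.38 (adjusted p = 0.0105) and PRIM1, a primase subunit, by 1.27 (adjusted p = 0.0203). Among genes named after their values were seen, POLA1, the polymerase that fills in the complementary strand, rose by 1.13 (adjusted p = 0.0109) and DCLRE1B, which encodes the TRF2-bound nuclease Apollo, by 1.15 (adjusted p = 0.0178). The CST complex recruits that polymerase to telomeres, and no subunit of it was called: the log2 change was 0.57 for CTC1 (adjusted p = 0.208) and -0.75 for STN1 (adjusted p = 0.119). STN1 was called lower by DESeq2 (adjusted p = 0.0454), and TEN1 had too few counts to test, with 76.3% of its exon length shared with other genes. Without ACBI1 replicate 1 the list had 6 called higher and without ACBI1 replicate 2 it had 5. Many of these genes serve general DNA replication and repair, so the list does not isolate telomeres.

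Genes of telomeric chromatin and of ALT, the recombination pathway that some cancers use instead of telomerase, gave a single call. Of 15 tested, 1 was called, the histone gene H3-3B, which was lower (log2 change -0.98, SE 0.17, edgeR adjusted p = 0.0154), and the median log2 change was 0.19. ATRX and DAXX, whose loss marks ALT cancers, had log2 changes of -0.17 (adjusted p = 0.556) and -0.01 (adjusted p = 0.984). H3-3B was not called without ACBI1 replicate 1 (adjusted p = 0.0990) or without ACBI1 replicate 2 (0.0648), and 2 genes were called higher by DESeq2.

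Transcripts of factors reported to act on TERT were examined next, as a list of 16 activators and one of 10 repressors. Of the 15 activators tested, 0 were called higher and 5 lower, with a median log2 change of -0.19. At an unadjusted p under 0.05 there were 2 higher and 5 lower, and the number called higher was 1 with DESeq2 and 0 with limma-voom. HIF1A, the hypoxia factor, fell from 325 and 489 CPM to 103 and 102 CPM (log2 change -1.99, SE 0.24, edgeR adjusted p = 0.00636). KLF4 fell by 1.89 on the log2 scale (adjusted p = 0.0153), ETS2 fell by 1.60 (adjusted p = 0.00459), CTNNB1, which encodes beta-catenin, fell by 0.97 (adjusted p = 0.0155) and USF1, an E-box factor, fell by 0.86 (adjusted p = 0.0373). Without ACBI1 replicate 1 the number called lower was 3. The 1 activator called higher by DESeq2 was MYC, the best known E-box activator of TERT. MYC stood at 3762 and 4674 CPM with DMSO and at 5794 and 7738 CPM with ACBI1, so the groups did not overlap. The log2 change, 0.68 (SE 0.24), did not pass over all genes (edgeR adjusted p = 0.104). It passed with DESeq2 (adjusted p = 0.0370) and with every gene that had a count kept (edgeR adjusted p = 0.00670). Those fits called 4511 and 5518 genes in all, against 3331. MYC did not pass under the 3 other scalings (edgeR adjusted p = 0.0686 to 0.105), a mean of at least 5 CPM (0.0827) or limma-voom (0.0837). With 1 library left out its log2 change was 0.45 to 0.88. MAX, the partner of MYC, had a log2 change of -0.01 (adjusted p = 0.972), ETS1 one of 0.50 (adjusted p = 0.184) and GABPA one of 0.20 (adjusted p = 0.499).

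Among 9 repressors tested, 1 was called lower and 1 higher, both of them E-box proteins that compete with MYC for MAX. MXD1 fell from 83.8 and 46.8 CPM to 22.5 and 12.5 CPM (log2 change -1.90, SE 0.38, edgeR adjusted p = 0.0241). MNT rose from 59.3 and 51.8 CPM to 82.0 and 93.1 CPM (log2 change 0.66, SE 0.16, adjusted p = 0.0432), a call that was lost without DMSO replicate 2, without ACBI1 replicate 1 or without ACBI1 replicate 2. With DMSO replicate 1, DMSO replicate 2 or ACBI1 replicate 2 left out 2 repressors were called lower, and with ACBI1 replicate 1 left out 1 was. The 7 lists of non-member genes include MEIOC, listed when its rise was already known, and LIN28B, testable only through its ACBI1 counts. Most listed genes also stood at higher levels than many of all tested genes, so the shares that follow are not like for like. Across all 7 lists, 28 of 101 tested were called (20 higher, 8 lower), or 27.7%, beside 17.4% of all tested genes. Leaving out ACBI1 replicate 1 brought that total to 14, and leaving out ACBI1 replicate 2 to 16.

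**Figure D4:**
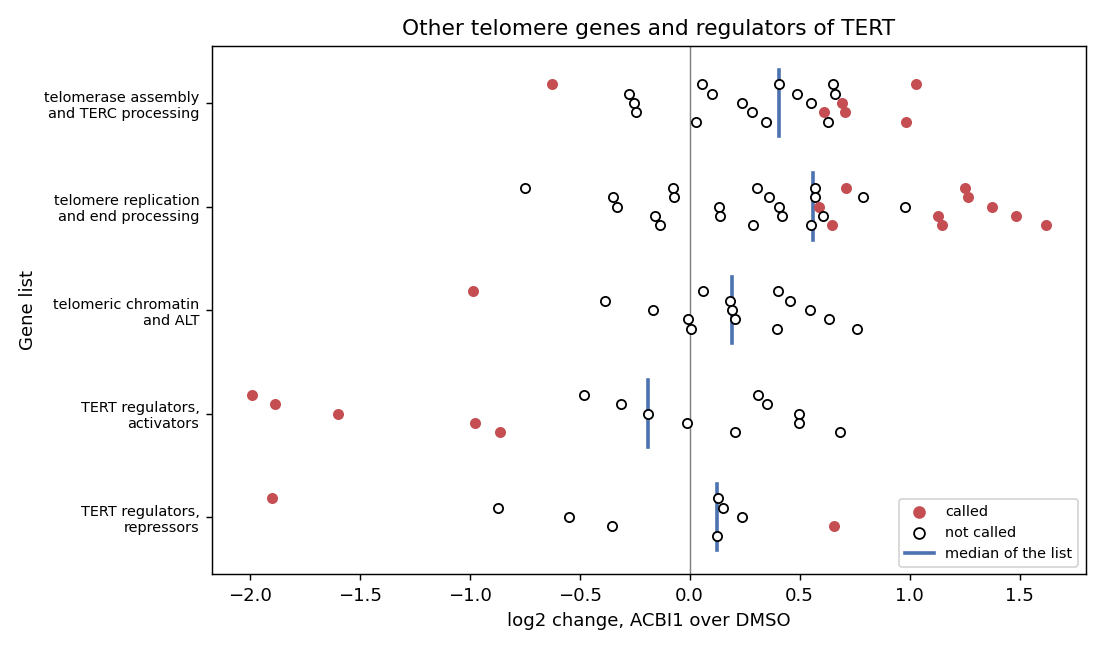
Log2 change, ACBI1 over DMSO, of each tested gene in 5 lists of telomere genes and of factors reported to act on TERT; filled red points were called, open points were not, blue lines are list medians, and vertical placement within a list has no meaning. The 10 called genes of telomere replication and end processing lie to the right of 0 and the 5 called activators of TERT to the left.

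The genes next to TERT on chromosome 5 did not all change with it. The 2 closest on the side of its 3′ end, SLC6A18 at 6958 bases and SLC6A19 at 28030 bases, were at 0 counts throughout, and at a floor of 3 counts this leaves room for 0.0335 to 0.0458 CPM, depending on the library. On the other side CLPTM1L, whose near end is 22675 bases from the TERT start, was at 255 and 293 CPM with DMSO and at 332 and 380 CPM with ACBI1, a log2 change of 0.38 that was not called (edgeR adjusted p = 0.193). Next beyond it, SLC6A3 was at 0.0447 CPM or less, and LPCAT1 had a log2 change of -0.25 (adjusted p = 0.547).

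Further out, 2 of the 8 neighbours that could be tested were called, both higher and both beyond the 3′ end of TERT. NKD2, an inhibitor of WNT signalling 214204 bases away, rose from 5.46 and 4.21 CPM to 42.2 and 24.4 CPM (log2 change 2.78, SE 0.32, edgeR adjusted p = 0.00580). TRIP13, a checkpoint ATPase 333790 bases away, rose from 66.7 and 46.2 CPM to 173 and 188 CPM (log2 change 1.68, SE 0.22, adjusted p = 0.00776). Between NKD2 and TERT, SLC12A7 had a log2 change of -0.38 (adjusted p = 0.165). BRD9, beyond TRIP13, had one of 0.52 (adjusted p = 0.169), and it was called without DMSO replicate 1 (adjusted p = 0.0228), which made 3 neighbours called. MRPL36 (0.34, adjusted p = 0.169) and NDUFS6 (0.49, adjusted p = 0.0784), 503317 and 506331 bases beyond the start, were not called, and IRX4 was at 0.0763 CPM or less. NDUFS6 was called under library size only (adjusted p = 0.0465).

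**Figure D5:**
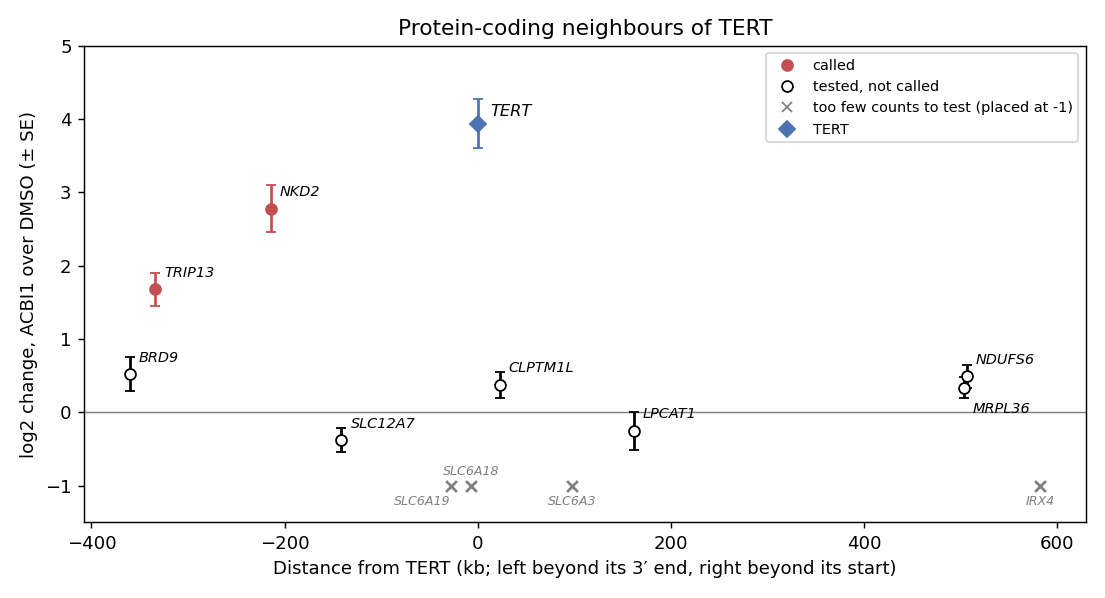
Log2 change, ACBI1 over DMSO, with bars of 1 SE, against distance from TERT in kilobases for the 6 nearest protein-coding genes on each side (negative beyond the 3′ end, positive beyond the start); red filled points were called, open points were not, crosses had too few counts. NKD2 at 2.78 and TRIP13 at 1.68 were called; SLC12A7 and CLPTM1L, which lie nearer to TERT, were not.

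The 5 non-member genes whose pattern over the 4 libraries was most like that of TERT were CACNA1H, BSN, VSTM1, NKD1 and SH2D5. Likeness was the root mean square difference of log2 CPM (prior count 2) centred on each gene. It was 0.10 for CACNA1H, 0.23 for BSN, 0.27 for VSTM1, 0.30 for NKD1 and 0.31 for SH2D5. Over 4 libraries in 2 groups it mostly reflects the size of the group difference, which the prior count shrinks for genes with few counts. The fitted log2 changes were 4.69 for CACNA1H, 3.94 for BSN, 5.90 for VSTM1, 3.71 for NKD1 and 4.37 for SH2D5, beside 3.94 for TERT. CACNA1H, a calcium channel gene, was rare, with 3 and 1 counts for DMSO and 64 and 46 for ACBI1. VSTM1 rested on 1 and 0 counts against 52 and 25. BSN, which encodes a presynaptic scaffold protein, stood at 0.921 and 0.514 CPM with DMSO and at 12.9 and 9.18 CPM with ACBI1. NKD1, the paralogue of the TERT neighbour NKD2, was at 0.209 and 0.125 CPM with DMSO and at 2.55 and 1.88 CPM with ACBI1. SH2D5 was at 1.04 and 0.751 CPM against 21.8 and 15.5 CPM.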

How the data were processed

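Whole-number counts of RNA-seq reads per gene symbol were used as deposited, in 2 DMSO and 2 ACBI1 libraries. TopHat2 2.1.1, HTSeq 0.11.0 and hg38 are named in the submitters' processing notes, with no role or order; annotation and strand setting are not given in the sources used here. The 5 closing lines for reads in no single gene (13.9% to 15.4% of reads listed) were left out. Genes were filtered with filterByExpr (minimum count 10, total 15), scaled by TMM and compared by the quasi-likelihood test of edgeR 4.0.16, run under R 4.3.3 (glmQLFit, glmQLFTest, two-sided, treatment alone, Benjamini-Hochberg over 19159 genes, called under 0.05). Alternatives were 3 other scalings, 2 other filters, the replicate number as a block, DESeq2 1.42.0, limma-voom (limma 3.58.1), a threshold of 0.01 and each library left out. The scripts were tested on simulated data. SE is the log2 change over the square root of F. Log2 CPM used a prior count of 2. Exon lengths, overlaps and neighbours came from GENCODE 29 (hg38, 56995 of 61228 features matched by symbol), promoters from RefSeq (GRCh38.p14).

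Members, lists and tests were chosen with earlier results of these data known (MEIOC and TERT among them). Outside the members, the text names TERC, MYC, GABPA, ETS1, all neighbours, at most 4 called genes per list with the largest change, lists of calls of 5 or fewer, and the 5 patterns most like TERT. SMARCA4, SMARCA2, PBRM1, GAR1, SMG6, MAX, ATRX, DAXX, RTEL1-TNFRSF6B, CTC1, STN1, TEN1, POLA1, DCLRE1B, SALL4 and the markers were named after their values were seen. Results on some genes are not reported here.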

Additional observations from a re-analysis of the deposited data

How the results depend on the processing

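Over the 12 other fits the log2 change of TERT was 3.93 to 4.03 with all 4 libraries and 3.59 to 4.42 with 1 left out (4.42 without DMSO replicate 1). Fits without 1 library leave a single one in a group, which is assumed to vary like the others. The number of genes called, 3331, was 5518 with every gene that had a count, 783 at a threshold of 0.01, and 1379 to 4292 with 1 library left out; the number of listed non-member genes called, 28, was 7 at 0.01 and 14 to 37 with 1 library left out. With the replicate number as a block, 7909 genes and 63 listed genes were called, and 6 of the 10 members; calls were then 6 higher and 1 lower of 8 neighbours of TERT, 6 higher and 2 lower for telomeric chromatin and ALT, 17 higher and 2 lower for telomere replication and end processing, and 4 higher and 6 lower for activators of TERT, MYC (adjusted p = 0.0136) among the higher, and SALL4 was called lower (0.000776). The labels do not tie equal numbers to a shared batch; deviations of same-numbered libraries correlated at 0.44 across genes. Falls were 61.2% of calls, 51.5% under library size only and 53.1% with the block. Among 689 values of 58 single genes under these fits no called gene changed sign, 31 values of non-members lost a call and 32 gained one, and 6 values of members moved by more than the SD between replicates. Simulated data for this comparison had 19159 genes, 200 of them changed, and 2 libraries a group. In them edgeR called 14.9% of genes changed by a log2 of 1, 59.7% by 2 and 93.9% by 4. Many more genes were called in the real data (3331), which eases the adjusted threshold, so these shares may be too low for it. An uncalled change near 1 may still be missed. Low counts limit TERC, and reads shared with other genes limit RTEL1.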

Other observations

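TERT is best known from germ cells and early embryos, so 16 genes of stem and germ cells were also read. Only 3 had enough counts to test. LIN28B, an RNA-binding protein that blocks let-7 maturation, rose from 0.135 and 0.0695 CPM to 1.36 and 0.915 CPM (log2 change 3.45, SE 0.53, edgeR adjusted p = 0.0113). It had 11 and 5 counts with DMSO and 122 and 60 with ACBI1. It thus had enough counts to test only through the ACBI1 libraries, and its call is not independent of that. MEIOC, a meiosis gene already seen to rise in these libraries when the list was written, went from 1.52 and 1.63 CPM to 21.3 and 12.9 CPM (log2 change 3.44, SE 0.33, adjusted p = 0.00382). For SALL4 the log2 change was -0.90 (adjusted p = 0.128), and it was called lower with every gene that had a count kept (adjusted p = 0.00485) and without DMSO replicate 2 (adjusted p = 0.0429). The other 13, among them POU5F1, NANOG, SOX2, DAZL and DDX4, were too rare to test, at no more than 0.145 CPM in any library. The log2 change of LIN28B was 3.06 to 4.01 with 1 library left out.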
